A study of Mus musculus with 2 samples.

Results

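The cells described here are conventional CD4 T cells with detectable Pdcd1 RNA, the transcript of the inhibitory receptor PD-1, from CD45-positive lung cells profiled by single-cell RNA sequencing (10x Genomics 3′ libraries). They were chosen by measured values: at least 1 of the 3 CD3 chains (Cd3e, Cd3d, Cd3g) detected, Cd4 and Pdcd1 detected, and Foxp3, Cd8a, Cd8b1, Cd79a, Csf3r and C1qa not detected. In all, 229 of 11905 cells met the rule, 113 of 6203 in the DT library and 116 of 5702 in the PBS library. Cells of the same gate in which Pdcd1 was not detected, 183 in DT and 179 in PBS, are called Pdcd1-negative below. Foxp3-detected CD4 T cells (62 in each library) and Pdcd1-detected CD8 T cells (62 in DT, 92 in PBS) are used only to place the values.

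Both groups were Scgb1a1cre/iDTR mice whose lungs carried HKP1 tumours, a mouse lung cancer line injected through the tail vein (150000 cells). The Cre is driven from Scgb1a1, the gene of the club cells of the airways, and switches on a diphtheria toxin receptor, so that toxin kills cells of that lineage. The DT group received diphtheria toxin in 2 doses of 600 ng per 20 g on days 8 and 9, and the PBS group received PBS. The treatment protocol, which is the same for both libraries and names the toxin in each, also gives tamoxifen (2 mg per 20 g on 5 days, days 3 to 7), the anti-PD-1 antibody RMP1-14 (250 µg per mouse on day 6) and lung irradiation of 4 Gy on each of 3 days (days 10 to 12). The design text gives radiation to both groups and does not mention the antibody, so whether these cells were exposed to it is not settled by the labels. Lungs were taken 24 to 48 h after the last dose, and the design names 4 mice per group; age and sex are not in the labels. Each group is 1 library with no label tying a cell to a mouse, so no test between groups was possible: every interval is an exact 95% interval for counting error alone, and "higher" or "lower" describes these libraries.

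PD-1, encoded by Pdcd1, is induced on T cells by signals through the antigen receptor and dampens those signals when it binds its ligands. In tumours and chronic infections, where antigen persists, T cells keep PD-1 and add further inhibitory receptors such as LAG-3 and TIM-3 under transcription factors that include TOX and the NR4A family, while the genes of naive, recirculating cells are shut off. In CD4 cells Pdcd1 also marks recently activated effector cells and follicular helper cells, which help B cells. The RNA was measured here, not the protein that an anti-PD-1 antibody binds.

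Among the genes that stood highest in these cells were 3 secreted signals: Ccl1, a chemokine that attracts CCR8-bearing cells, Xcl1, a chemokine that attracts XCR1-bearing dendritic cells, and Ifng, interferon-gamma. Their promoters are shown as the start of such genes, where the calcium-driven factor NFAT can act together with others; each runs from 250 bases before to 50 bases after the RefSeq start (GRCm38.p6), 5′ to 3′ on the gene's strand. Capitals mark GGAAA, the core of an NFAT site, or its reverse complement TTTCC.
Ccl1, chr11:82179763-82180062, minus strand: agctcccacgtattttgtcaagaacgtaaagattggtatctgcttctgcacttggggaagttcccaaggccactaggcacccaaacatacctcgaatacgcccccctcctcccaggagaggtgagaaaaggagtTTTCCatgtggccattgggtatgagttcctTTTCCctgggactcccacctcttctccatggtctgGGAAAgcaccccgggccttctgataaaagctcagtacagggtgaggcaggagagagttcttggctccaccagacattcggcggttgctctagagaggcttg
Xcl1, chr1:164935473-164935772, minus strand: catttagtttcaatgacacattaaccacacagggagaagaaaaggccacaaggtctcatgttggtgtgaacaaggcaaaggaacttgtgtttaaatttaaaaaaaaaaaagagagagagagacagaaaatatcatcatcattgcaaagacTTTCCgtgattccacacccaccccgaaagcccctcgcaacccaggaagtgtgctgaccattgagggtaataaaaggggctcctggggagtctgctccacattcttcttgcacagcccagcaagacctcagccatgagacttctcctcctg
Ifng, chr10:118440796-118441095, plus strand: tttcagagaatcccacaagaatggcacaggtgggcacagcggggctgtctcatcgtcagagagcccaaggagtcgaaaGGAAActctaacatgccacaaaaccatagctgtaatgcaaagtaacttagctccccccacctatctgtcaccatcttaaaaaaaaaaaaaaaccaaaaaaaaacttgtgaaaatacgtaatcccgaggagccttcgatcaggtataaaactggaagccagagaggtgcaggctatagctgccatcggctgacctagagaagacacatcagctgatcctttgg
The Ccl1 window holds 3 such cores, the Xcl1 window 1 and the Ifng window 1. The core, read on both strands, was in the window of 11 of the 15 genes named as higher in these cells that have a promoter in the RefSeq table, and in 61.3% of all 32851 promoter windows of the same length. The AP-1 site TGANTCA was in 2 of the 15 windows and 7.81% of all, while the cyclic AMP response element TGACGTCA and the NR4A site AAAGGTCA were in 0 of the 15 windows and in 1.79% and 1.51% of all. These matches describe letters only.

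The gate drew similar numbers of cells from both libraries at each step. A CD3 chain was detected in 1621 DT and 1640 PBS cells, Cd4 in 478 and 464 of those, and 296 and 295 remained after the exclusions, of which 113 and 116 had Pdcd1. Before exclusions 211 DT and 202 PBS cells had CD3, Cd4 and Pdcd1, and Foxp3 was detected in 43 and 33 of them. Every one of the 229 cells also had a transcript of an alpha-beta receptor constant region (Trac, Trbc1 or Trbc2), which the rule did not use, while the gamma-delta chain Trdc was detected in 10 DT and 2 PBS cells. None of their barcodes was among the 8 that occur in both libraries.

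Pdcd1 was detected in 38.2% of conventional CD4 T cells in DT (32.6 to 44.0) and in 39.3% in PBS (33.7 to 45.2). The shares lay within each other's intervals. In cell types that should lack the gene it was detected in 0.384% of B cells and 0.543% of neutrophils in DT, and in 0.148% and 0.289% in PBS, at median depths of 2408 and 2126 UMIs (unique molecular identifiers, which count RNA molecules) in DT and 2823 and 2618 UMIs in PBS. After each cell was thinned to 1500 UMIs, which left out 14 DT and 4 PBS cells, the share was 28.0% in DT and 24.4% in PBS. With at least 2 Pdcd1 UMIs required it was 27.4% in DT and 28.1% in PBS. Foxp3-detected CD4 T cells had Pdcd1 in 51.6% of cells in DT (38.6 to 64.5) and 35.5% in PBS (23.7 to 48.7). After thinning their shares were 29.03% in DT (18.2 to 41.95) and 25% in PBS (14.72 to 37.86), near those of the conventional cells. Among the chosen cells 32 in DT and 33 in PBS had exactly 1 Pdcd1 UMI, just inside the rule, 25 and 40 had 2 to 3, and 56 and 43 had 4 or more, with a highest value of 19 in DT and 16 in PBS.

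Detection of a receptor is easier in a deeper cell, and the chosen cells were deeper. Their medians were 5226 UMIs in DT and 5486 UMIs in PBS, against 3204 and 3584 UMIs in Pdcd1-negative cells. Median genes per cell were 2248 in DT and 2230 in PBS, against 1427 and 1510. The sums behind the levels below hold 722920 UMIs in DT and 846423 UMIs in PBS for the PD-1-positive cells. Levels are given as CPM (UMIs of a gene scaled to a fixed total over all genes in the summed cells), and log2 ratios were formed after 5 CPM were added to both sides.

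The sexes of the cells differ between the libraries. Of PD-1-positive cells 79 in DT had Xist and no Y-linked gene detected (female-called) and 6 the reverse (male-called), against 5 and 72 in PBS. Within DT, Pdcd1 was detected in 53.02% of 149 female-called conventional CD4 T cells (44.7 to 61.2) and 21.4% of 28 male-called cells (8.30 to 41.0). Within PBS the shares were 38.5% of 13 female-called cells (13.9 to 68.4) and 45.0% of 160 male-called cells (37.1 to 53.1). Median depth in DT was 4441 UMIs in these female-called and 3331 UMIs in these male-called cells. After thinning the DT shares were 34.7% (27.0 to 43.0) and 17.9% (6.06 to 36.9), with intervals that overlap. The thinned PBS shares were 23.1% and 30.8%. The effect of the toxin and the sex of the cells cannot be told apart in the DT to PBS comparisons of PD-1-positive cells below, since no sex has 20 of them in both libraries. Male-called Pdcd1-negative cells numbered 22 in DT and 88 in PBS, and the DT to PBS values of Pdcd1-negative cells below are over all of them, with no separation by sex.

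Lag3, the inhibitory receptor LAG-3, which binds MHC class II and was not used by the rule, marked these cells in both libraries. Its level was 472 CPM in DT PD-1-positive cells (341 UMIs) and 61.1 CPM in DT Pdcd1-negative cells (41 UMIs), a ratio of 7.72 (5.57 to 10.95). In PBS it was 313 CPM (265 UMIs) and 36.1 CPM (26 UMIs), a ratio of 8.68 (5.79 to 13.5). Lag3 was detected in 59.3% of the DT and 60.3% of the PBS cells, at a median depth of 5226 and 5486 UMIs, and in 0 and 0.815% of B cells and 0.679% and 0.770% of neutrophils. Its level was above those of Foxp3-detected CD4 cells, at 139 CPM in DT and 96.8 CPM in PBS, and of Pdcd1-detected CD8 T cells, at 240.01 CPM in DT and 222 CPM in PBS. By share of cells Lag3 was as common in the Pdcd1-detected CD8 T cells, at 59.7% in DT and 60.9% in PBS. Lag3 lies on chromosome 6 (124904359 to 124912434, GRCm38), 16.1 kb from Cd4, which the rule used.

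Tox, a nuclear factor that T cells need to persist under chronic stimulation, was higher by less. It stood at 338 CPM in DT PD-1-positive cells (244 UMIs), against 93.9 CPM in Pdcd1-negative cells (63 UMIs), and at 223 CPM (189 UMIs) against 59.7 CPM (43 UMIs) in PBS. The ratios were 3.60 (2.72 to 4.82) in DT and 3.74 (2.68 to 5.34) in PBS. Tox was detected in 67.3% of PD-1-positive cells in DT and 70.7% in PBS, against 24.0% and 16.2% of Pdcd1-negative cells, and after thinning in 32.7% and 31.9%, against 11.2% and 6.29%.

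Penk, which encodes the precursor of the enkephalin opioid peptides, was nearly absent from Pdcd1-negative cells. It gave 726 UMIs in DT PD-1-positive cells (1004 CPM, 933 to 1080) against 1 UMI in DT Pdcd1-negative cells, and 170 UMIs in PBS PD-1-positive cells (201 CPM, 172 to 233) against 0 UMIs, at least 48.3-fold higher against a floor of 3 UMIs over the cell set. It was not a marker of the majority: 28 of the 113 DT cells (24.8%) and 21 of the 116 PBS cells (18.1%) had a Penk UMI, and the richest cell held 14.9% of the UMIs in DT and 22.9% in PBS. Penk was at 442 CPM in DT and 135 CPM in PBS Pdcd1-detected CD8 T cells, at 188 and 9.44 CPM in Foxp3-detected CD4 T cells, and in 0 of 1043 DT and 0 of 1350 PBS B cells (upper limits 0.353% and 0.273%). The order of its levels, PD-1-positive CD4, Pdcd1-detected CD8, Foxp3-detected CD4, Pdcd1-negative CD4, was the same in both libraries, with no overlap between neighbouring intervals in DT. In PBS the Foxp3-detected (2.57 to 24.2 CPM) and Pdcd1-negative (0 to 5.12 CPM) intervals overlap. By share of cells the order differed between the libraries. Penk was detected in 33.9% of Pdcd1-detected CD8 T cells in DT, above the PD-1-positive CD4 cells, and in 9.78% in PBS, below them.

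**Figure D1:**
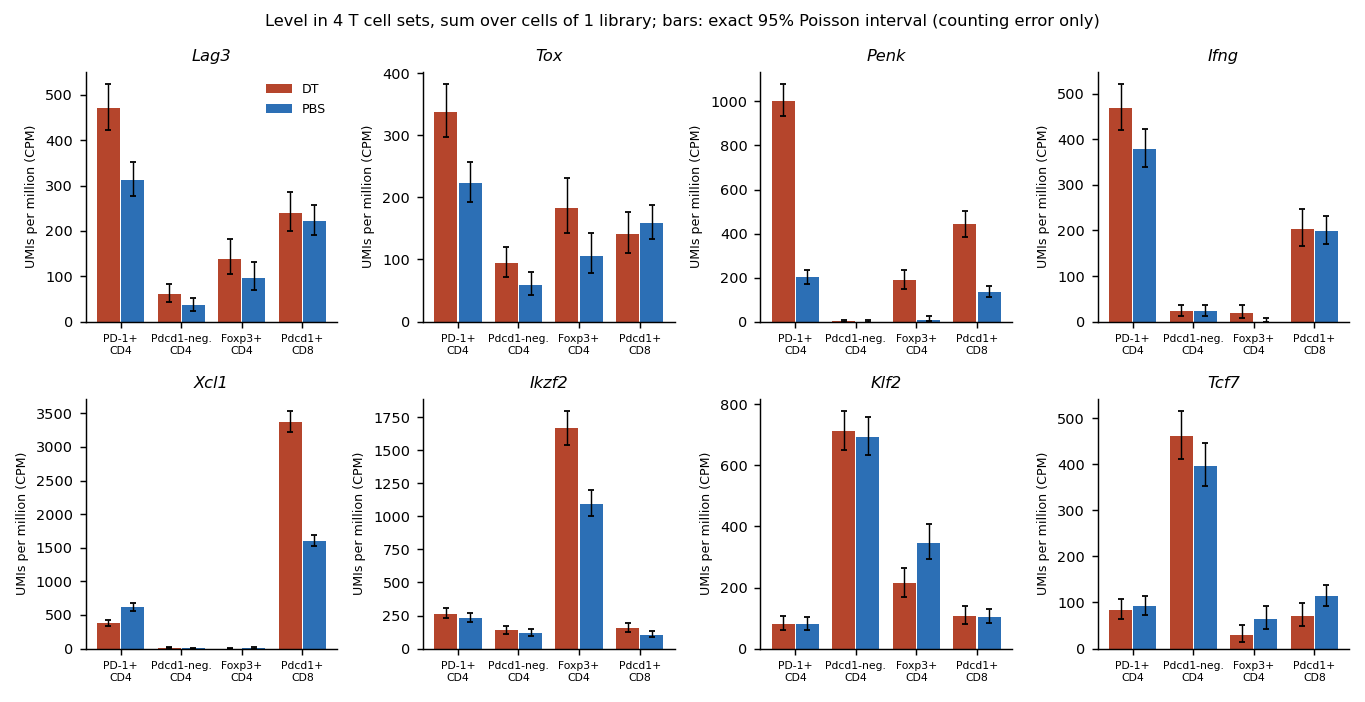
Levels (y axis, CPM) of 8 genes in the sums of PD-1-positive CD4, Pdcd1-negative CD4, Foxp3-detected CD4 and Pdcd1-detected CD8 T cells, with DT bars in red and PBS bars in blue; error bars are exact 95% Poisson intervals for counting error only. Lag3, Tox, Penk and Ifng are highest in the PD-1-positive CD4 cells of both libraries, Xcl1 in the CD8 cells (3378 CPM in DT, 1604 CPM in PBS), Ikzf2 in the Foxp3-detected cells, and Klf2 and Tcf7 in the Pdcd1-negative cells.

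For Lag3, Tox, Ifng and Klf2, cells with 4 or more Pdcd1 UMIs stood farthest from Pdcd1-negative cells in both libraries, in share of cells and in CPM. Lag3 was detected in 7.65% of DT and 10.1% of PBS cells with no Pdcd1 UMI, in 34.4% and 42.4% of those with 1, in 32.0% and 57.5% of those with 2 to 3, and in 85.7% and 76.7% of those with 4 or more. Tox and Ifng had their highest shares at 4 or more UMIs in both libraries, Tox at 85.7% in DT and 79.1% in PBS, and Ifng at 60.7% in DT and 62.8% in PBS. Penk was detected in 36.0% of DT and 22.5% of PBS cells with 2 to 3 Pdcd1 UMIs and in 23.2% and 20.9% of those with 4 or more, whereas DT cells held 703 CPM of Penk at 2 to 3 and 1237 CPM at 4 or more. PBS cells gave 60 Penk UMIs at 2 to 3, and 106 UMIs (303.5 CPM) at 4 or more. The Penk share and level ran in opposite directions between these classes, so no order is read from them. Klf2, a factor that keeps naive T cells recirculating, went the other way, from 66.1% in DT and 67.0% in PBS with no Pdcd1 UMI to 34.4% and 27.3% with 1, 12.0% and 15% with 2 to 3, and 0% and 2.33% with 4 or more. Depth differs between these classes: median UMIs were 4144 in DT and 4380 in PBS at 1 Pdcd1 UMI, 3618 and 5740 at 2 to 3, and 6152 and 6216 at 4 or more, and its part in these shares was not tested. The Klf2 shares at 1 and at 2 to 3 Pdcd1 UMIs rest on few cells: 11 of 32 and 3 of 25 in DT, and 9 of 33 and 6 of 40 in PBS.

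**Figure D2:**
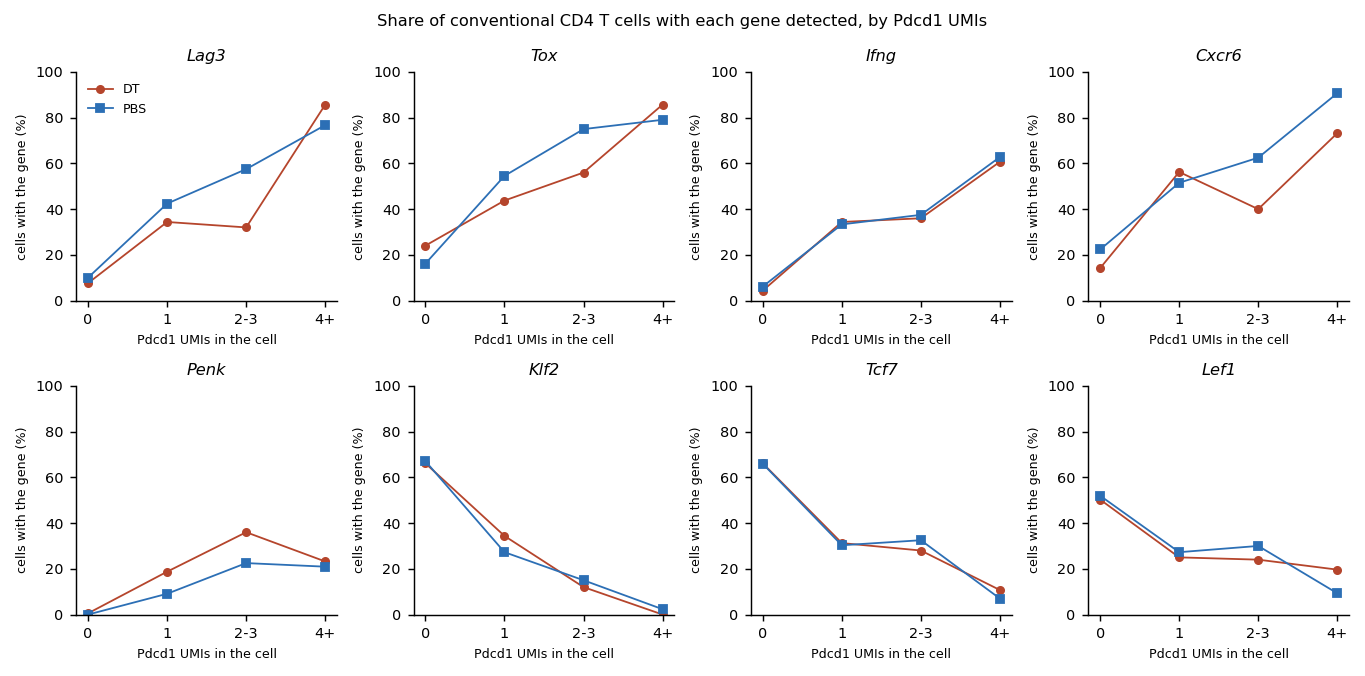
Share of conventional CD4 T cells in which a gene was detected (y axis, percent) by the number of Pdcd1 UMIs in the cell (x axis), for 8 genes, DT in red circles and PBS in blue squares; a point stands for 25 to 56 PD-1-positive or 179 to 183 Pdcd1-negative cells. Lag3, Tox, Ifng and Cxcr6 end highest at 4 or more UMIs, while Klf2, Tcf7 and Lef1 end lowest.

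Across the transcriptome, 236 of 5844 measured genes (at least 30 UMIs over both cell sets in each library) were at least 2-fold higher in PD-1-positive than in Pdcd1-negative cells in both libraries, which is 4.04%, and 117 were at least 2-fold lower in both, which is 2%. With trimmed mean scaling, which lowers log2 ratios by 0.09 in DT and 0.13 in PBS, the counts were 192 higher and 148 lower. The contrasts share no library, and across genes their log2 ratios had a Pearson r of 0.75, a description over genes that are not independent. Only 4 genes were past 2-fold in opposite directions. Weighting the Pdcd1-negative cells to the depth of the PD-1-positive cells gave 187 higher and 68 lower genes.

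Secreted signals led the genes that were higher. Ccl1 gave 279 UMIs in DT and 680 UMIs in PBS PD-1-positive cells against 0 UMIs in the Pdcd1-negative cells of either library, at least 86.3-fold and 193-fold higher against the floor of 3 UMIs. Its level was 386 CPM in DT (342 to 434) and 803 CPM in PBS (744 to 866), beside 442 CPM (386 to 503) and 842 CPM (781 to 906) in Pdcd1-detected CD8 T cells. Xcl1 was at 382 CPM in DT and 617 CPM in PBS, against 10.4 and 2.77 CPM, and Spp1, the matrix protein and cytokine osteopontin, at 492 and 579 CPM, against 8.94 and 4.16 CPM. These 3 came from few cells: Ccl1 was detected in 18 DT and 20 PBS cells, and 1 cell held 40.9% of its UMIs in DT and 49.4% in PBS, while 1 cell held 75.7% of Xcl1 UMIs in PBS. Spp1 was also detected in 5.91% of DT and 5.10% of PBS neutrophils, beside 13.3% and 13.8% of the PD-1-positive cells.

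Ifng was spread more widely, over 54 of 113 DT cells (47.8%) and 53 of 116 PBS cells (45.7%), against 4.37% and 6.15% of Pdcd1-negative cells. Its level was 469 CPM (339 UMIs) in DT and 379 CPM (321 UMIs) in PBS, against 22.4 CPM (15 UMIs) and 22.2 CPM (16 UMIs), with ratios of 21.0 (12.5 to 37.9) in DT and 17.1 (10.4 to 30.3) in PBS. After thinning it was detected in 26.5% of DT and 25.9% of PBS PD-1-positive cells, against 2.37% and 3.43%. Ccl3 and Ccl4, inflammatory chemokines that attract leukocytes, had ratios of 11.3 (8.99 to 14.3) and 13.9 (11.3 to 17.2) in DT and 5.09 (4.14 to 6.29) and 6.89 (5.90 to 8.07) in PBS.

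The other genes named by the same rule of size hold several signalling regulators. Nr4a2, an orphan nuclear receptor induced by antigen receptor signals, was higher by 3.63 in DT and 2.82 in PBS on the log2 scale, and Rgs16, a brake on G protein signalling, by 2.95 and 3.28. Nrgn (neurogranin, a calmodulin-binding protein best known from neurons) was higher by 3.71 and 3.26 and was detected in 46 DT and 42 PBS cells. Mir155hg, the host transcript of the microRNA miR-155, was higher by 3.82 and 3.36, Gldc, an enzyme of glycine breakdown, by 3.02 and 3.00, and Enpp2 (autotaxin, which makes lysophosphatidic acid) by 3.65 in DT and at least 16.2-fold in PBS, where Pdcd1-negative cells had 0 UMIs. Serpine2, a protease inhibitor, was at 242 CPM in DT and 70.9 CPM in PBS, against 11.9 and 1.39 CPM, and C2cd4b had 42 DT and 53 PBS UMIs against 1 and 0. Some of these genes stood as high in Pdcd1-detected CD8 T cells. There Nrgn was at 697 CPM in DT and 276 CPM in PBS, beside 353 and 269 CPM in PD-1-positive CD4 cells. Nr4a2 was at 119 and 100 CPM, beside 112 and 79.2 CPM, and Rgs16 at 209 and 187 CPM, beside 206 and 219 CPM. Mir155hg, Gldc, Enpp2, Serpine2 and C2cd4b were lower in the CD8 cells in both libraries. The naming rule itself required the same direction in both libraries and intervals that leave out 1.

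Of the same 20, 2 genes with no counts in Pdcd1-negative cells, 1810009J06Rik (at least 56.0-fold and 29.5-fold higher) and Gm2663 (at least 22.6-fold and 16.5-fold higher), lie inside the locus of the T cell receptor beta chain on chromosome 6 (first segment from 40891229, last segment to 41558452, GENCODE vM21). They were detected in 9 DT and 7 PBS cells, and in 10 and 4. The last 3 of the 20, Ccl9, Lyz2 and Mgl2, are genes of myeloid cells. Lyz2 was detected in 21 DT and 31 PBS cells, with 75.5% and 36.4% of its UMIs in 1 cell, Ccl9 in 5 and 8 cells, with 61.9% and 43.2% in 1 cell, and Mgl2 in 3 and 5 cells, with 75.8% and 47.9% in 1 cell. Without the cells that hold markers of other types, described below, the Lyz2 log2 ratio was 0.23 in DT and 0.21 in PBS, against 3.34 and 2.71 with them, and the Mgl2 ratio 0.02 and 0.42, against 2.70 and 3.63, where PBS Pdcd1-negative cells had 0 UMIs and the added 5 CPM sets the value. Ccl9 was then at 2.73 in DT and 0.01 in PBS, against 2.74 and 3.46.

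**Figure D3:**
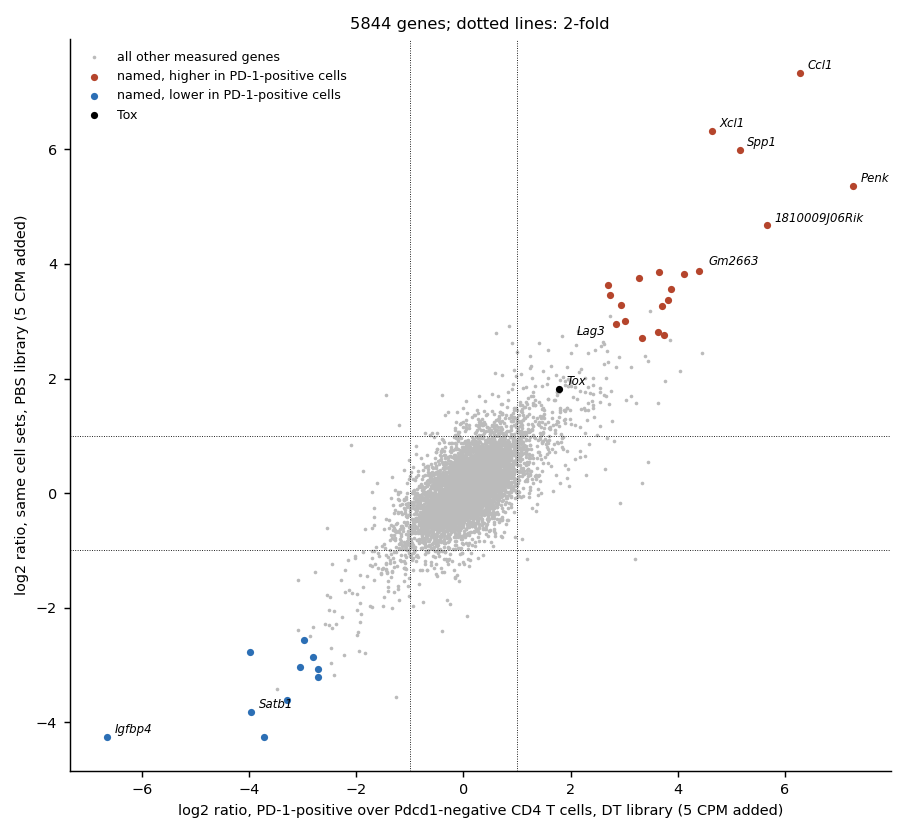
Log2 ratio of PD-1-positive over Pdcd1-negative CD4 T cells in the DT library (x axis) and in the PBS library (y axis) for 5844 genes (grey), with the 20 genes named as higher in red, the 10 named as lower in blue and Tox in black; dotted lines mark 2-fold. Penk lies farthest right (7.28 in DT, 5.36 in PBS), Ccl1 highest (6.29 in DT, 7.34 in PBS) and Igfbp4 farthest left (-6.65 in DT, -4.26 in PBS).

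Receptors and factors of persistent stimulation stood higher as groups than in Pdcd1-negative cells, but not than in Foxp3-detected CD4 T cells. Summed over 15 listed inhibitory receptors, levels were 1665 CPM in DT and 1186 CPM in PBS, beside 1738 and 1232 CPM in Foxp3-detected cells. Pdcd1-detected CD8 T cells held 1108 and 948 CPM. The 16 listed factors summed to 2804 and 2532 CPM, beside 3245 and 2560 CPM in Foxp3-detected and 1642 and 1527 CPM in CD8 cells. Of 11 measured inhibitory receptors 6 were at least 2-fold higher in both libraries and 0 lower, with a median log2 ratio of 1.58 in DT and 1.24 in PBS, beside 0.08 and 0.11 over all 5844 genes. Of these 5844 genes 4.04% were higher and 2% lower in both libraries, the shares to set beside the list counts of this contrast here and below. The 6 were Lag3, Ctla4, Cd200, Nrp1, Entpd1 and Havcr2, which encodes TIM-3 and had ratios of 16.9 (6.98 to 53.3) in DT and 7.13 (3.42 to 17.2) in PBS. The others were not uniform: Btla was at -0.44 in DT and 0.19 in PBS, Cd96 at -0.88 and 0.01, and Tigit had 15 DT and 7 PBS UMIs in all. Of 14 measured transcription factors of chronic stimulation 7 were at least 2-fold higher in both and all 14 lay above 0, with medians of 1.498 in DT and 1.54 in PBS. The 7 were Tox, Nr4a2, Nr4a3, Bhlhe40, Rbpj, Nfil3 and Prdm1, of which Bhlhe40, a regulator of cytokine output, had log2 ratios of 2.63 and 1.72. Early genes of receptor signals stood higher by less, at medians of 0.45 in DT and 0.36 in PBS. Of 12 measured, 1 was at least 2-fold higher in both libraries and 1 lower.

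Costimulatory receptors of the TNF family were higher beside the inhibitory ones. Here 6 of 11 measured genes were at least 2-fold higher in both libraries and 0 lower, with medians of 1.17 in DT and 1.08 in PBS. Tnfrsf4 (OX40) was at 1004 CPM in DT and 675 CPM in PBS, against 183 and 164 CPM, and Tnfrsf9 (4-1BB) at 346 and 223 CPM, against 52.2 and 43.0 CPM. Tnfsf11, the cytokine RANKL, had ratios of 8.26 (4.29 to 17.8) in DT and 6.75 (3.86 to 12.8) in PBS, while the resting-cell receptors Cd27 and Cd28 lay within 2-fold at -0.20 and 0.14 in DT and -0.66 and 0.04 in PBS.

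Each helper programme had some genes that were higher. Of 12 Th1 genes 5 were at least 2-fold higher in both libraries (Ifng, Cxcr6, Il18rap, Ccl3, Ccl4) and 0 lower, with medians of 1.15 in DT and 0.94 in PBS, but Tbx21, the factor that defines the lineage, had 21 DT and 27 PBS UMIs and log2 ratios of 0.89 and 0.17. Cxcr6, a receptor of T cells that stay in tissue, was at 434 CPM in DT and 449 CPM in PBS, against 90.9 and 158 CPM. Of 10 follicular helper genes 4 were higher in both and 1, Tcf7, lower, with medians of 0.75 and 0.64. Il21, the cytokine of those cells, was detected in 17 DT and 25 PBS cells, while Bcl6, their defining factor, was in 7 and 13, and Cxcr5, their homing receptor, in 3 and 6. Cells with Il21 and Bcl6 together numbered 2 in DT and 0 in PBS.

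Of 3 measured Th2 genes Ccr8 was higher in both libraries, by 2.57 in DT and 2.58 in PBS, and the factor Gata3 was at 0.21 and -0.08. Of 5 Th17 genes Ccr6 and Ramp1 were higher in both, while the factor Rora was at 0.39 and 0.29. The cytokine and chemokine list had 7 of 11 measured members at least 2-fold higher in both and 0 lower, with medians of 3.44 in DT and 2.31 in PBS, led by the genes above and Lta, lymphotoxin alpha. Glycolysis genes lay above 0 throughout, 11 of 11 in both libraries, but at medians of 0.79 and 0.60 with 1 past 2-fold in both, Tpi1. Nuclear genes of the respiratory chain did so too, 18 of 18 in both libraries, at medians of 0.49 in DT and 0.45 in PBS. The medians over all 5844 genes were 0.08 and 0.11. Interferon-stimulated genes had medians of -0.04 in DT and -0.07 in PBS, with 0 of 17 past 2-fold in both in either direction. Without the mixed cells described below those medians were -1.42 in DT and -0.66 in PBS.

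**Figure D4:**
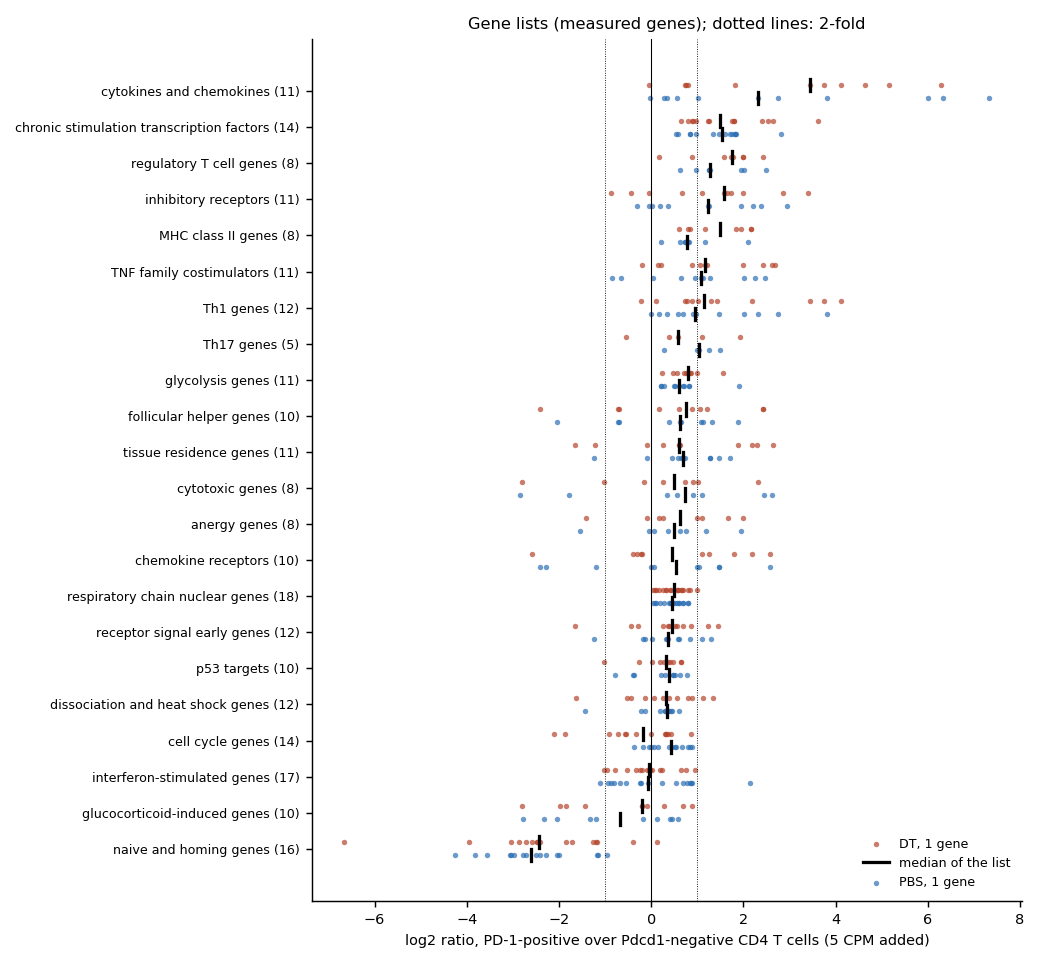
Log2 ratios of PD-1-positive over Pdcd1-negative CD4 T cells (x axis) for the measured genes of each list (y axis, number of genes in brackets), DT in red above PBS in blue; 1 point is 1 gene, black marks are list medians and dotted lines mark 2-fold. Cytokines and chemokines end farthest right (medians 3.44 in DT, 2.31 in PBS) and naive and homing genes farthest left (-2.44 in DT, -2.60 in PBS).

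Genes of naive and recirculating T cells were lower nearly throughout. Of 16 measured genes 13 were at least 2-fold lower in both libraries and 0 higher, with medians of -2.44 in DT and -2.60 in PBS. Igfbp4, a growth factor binding protein of naive CD4 cells, gave 1 UMI in DT and 18 UMIs in PBS PD-1-positive cells, against 428 and 358 UMIs, a ratio of 0.0022 (5.48e-05 to 0.0121) in DT and 0.0428 (0.0251 to 0.0687) in PBS. Satb1, a chromatin organiser, was at 23.5 CPM in DT and 23.6 CPM in PBS, against 438 and 397 CPM, and Klf2 at 81.6 and 80.3 CPM, against 712 and 694 CPM. The factor Tcf7, which also keeps a self-renewing pool of PD-1-positive T cells in chronic infection, was at 83.0 and 92.2 CPM, against 462 and 397 CPM, and was detected in 20.4% of DT and 22.4% of PBS cells.

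The 3 list genes outside that count were Foxo1 (-1.20 in DT, -0.95 in PBS), Actn1 (0.12 and -1.17) and Ccr7, the receptor for lymph node entry, at -0.40 in DT and -2.41 in PBS. The residence gene Cd69 was lower too, with ratios of 0.297 (0.191 to 0.449) in DT and 0.396 (0.254 to 0.606) in PBS, while Cxcr6, Crem, Bhlhe40 and Odc1 of the same 11 genes were at least 2-fold higher in both. Gzma, a granzyme, was lower by 2.80 in DT and 2.85 in PBS on the log2 scale, but was detected in 2 DT and 3 PBS cells against 4 and 3, and its PBS log2 ratio was 0.83 without cells that had Il2ra or Ikzf2. Its relative Gzmb was lower by 1.02 and 1.79, but its log2 ratio was 0.54 in DT as a mean over cells and 0.42 in PBS without cells that had Il2ra or Ikzf2. Nkg7, a protein of cytotoxic granules, was the 1 of 8 measured cytotoxic genes higher in both libraries, at 2274 CPM in DT and 1779 CPM in PBS, against 452 and 323 CPM. Of 8 measured anergy genes 2, Nrp1 and Ndfip1, were at least 2-fold higher in both libraries and 1 lower, with medians of 0.63 in DT and 0.497 in PBS. The lower one was Dgka, a lipid kinase that limits receptor signals, by 1.41 and 1.54. Pdlim4, a cytoskeletal adaptor, had 0 DT and 4 PBS UMIs against 50 and 44. Of the 10 genes named as lower, 4 are known only by the identifiers C230085N15Rik, Gm37248, Gm2682 and 5830444F18Rik, with log2 ratios between -4.26 and -2.57.

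Ikzf2, Ctla4 and Il2ra, genes best known from regulatory T cells, were present but below their levels in Foxp3-detected cells. Of 8 measured regulatory T cell genes 6 were at least 2-fold higher in PD-1-positive than in Pdcd1-negative cells in both libraries, with medians of 1.75 in DT and 1.28 in PBS. Ikzf2, which encodes the factor Helios, was detected in 57 DT cells (50.4%) and 58 PBS cells (50%), at 264 CPM in DT and 234 CPM in PBS, against 1666 and 1097 CPM in Foxp3-detected cells, ratios of 0.159 (0.134 to 0.187) and 0.213 (0.1796 to 0.252). Ctla4 and Il2ra also stood below Foxp3-detected cells, with ratios of 0.294 and 0.151 in DT and 0.264 and 0.2003 in PBS. Ifng ran the other way, at 469 CPM in DT and 379 CPM in PBS PD-1-positive cells, against 18.03 and 0 CPM in Foxp3-detected cells.

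Leaving out every cell with Il2ra or Ikzf2 left 44 DT and 40 PBS PD-1-positive cells. The Lag3 log2 ratio was then 3.31 in DT and 3.07 in PBS, Tox 2.04 and 1.75, and Ifng 4.63 and 3.77, beside 2.85 and 2.95, 1.79 and 1.82, and 4.11 and 3.82 with all cells. Ccl1 was far lower, at 34.0 CPM in DT and 28.9 CPM in PBS without them and 386 and 803 CPM with them. Penk was at 421 and 83.0 CPM without them, beside 1004 and 201 CPM.

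The cells were not uniform. Lag3 and Tox were found together in 57 DT and 58 PBS cells: Tox was detected in 85.1% of DT and 82.9% of PBS cells with Lag3, and in 41.3% and 52.2% of those without. All of Lag3, Tox and Penk were detected in 15 DT and 14 PBS cells, of median depth 7980 and 8538 UMIs, and none of them in 23 and 22 cells, of median depth 3380 and 3802 UMIs, so depth moves with these counts and its part in them was not tested. Of cells with Ifng, Cxcr6 was detected in 77.8% in DT and 86.8% in PBS, against 45.8% and 55.6% without. Of cells with Ccl1, Xcl1 was detected in 50% in DT and 40% in PBS, against 16.8% and 14.6% without. Of cells with Penk, Ikzf2 was detected in 75% in DT and 52.4% in PBS, against 42.3% and 49.5% without. In both libraries cells with Lag3, Ifng, Ccl1 or Penk had a higher median depth than cells without that gene. For Penk these medians were 6652 against 4538 UMIs in DT and 8232 against 4857 UMIs in PBS. The part of depth in these pairs was not tested.

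Between the libraries 97 of 6567 genes were at least 2-fold higher in DT than in PBS PD-1-positive cells and 89 at least 2-fold lower, beside 118 higher and 111 lower of the same genes in Pdcd1-negative cells. Of the 6567 genes, those with at least 30 UMIs in PD-1-positive cells of both libraries together, 498 were at least 1.5-fold higher in DT, which is 7.58%, and 343 at least 1.5-fold lower, which is 5.22%. Trimmed mean scaling gave 405 higher and 420 lower. The median log2 ratio was 0.04, and 0.05 in Pdcd1-negative cells.

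Of Lag3, Tox and Penk, Penk had the largest DT to PBS ratio. Its ratio of DT to PBS was 5.00 (4.23 to 5.94) in PD-1-positive cells and 19.9 (7.46 to 75.1) in Foxp3-detected cells (73 and 4 UMIs). The share of PD-1-positive cells with Penk differed by less at full depth, 24.8% in DT and 18.1% in PBS, than after thinning, 21.2% and 5.17%. Serpine2 had a ratio of 3.41 (2.53 to 4.66) from 175 and 60 UMIs. Lag3 and Tox were both at 1.51 (1.28 to 1.78 and 1.24 to 1.84), near their values of 1.69 (1.01 to 2.88) and 1.57 (1.05 to 2.38) in Pdcd1-negative cells. Ccl1, at 0.480 (0.416 to 0.553), and Xcl1, at 0.619 (0.533 to 0.718), were lower in DT as sums, but as a mean over cells their log2 ratios were -0.12 and 0.27.

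Several genes of the naive and homing list were higher in DT. Ccr7 was at 166 CPM in DT (120 UMIs) and 46.1 CPM in PBS (39 UMIs), a ratio of 3.60 (2.49 to 5.31), beside 0.828 (0.664 to 1.03) in Pdcd1-negative cells. Il7r, the receptor for the survival cytokine interleukin-7, had a ratio of 2.82 (2.14 to 3.76), beside 1.42 (1.25 to 1.603). In all, 4 of 14 measured list genes were at least 1.5-fold higher and 0 lower, the others being Ly6c1 (27 UMIs in 5 DT cells and 3 UMIs in 2 PBS cells) and Actn1. Of all 6567 genes 7.58% were higher and 5.22% lower at this fold, the shares to set beside the DT to PBS list counts in PD-1-positive cells here and below. Of the DT Ccr7 UMIs 35.8% were in 1 cell, and the log2 ratio of mean levels over cells was 1.38. The glucocorticoid-induced list had 6 of 11 genes at least 1.5-fold higher and 0 lower at a median of 0.81, beside a median of 0.55 in Pdcd1-negative cells. Tsc22d3, which encodes the glucocorticoid-induced leucine zipper, had ratios of 1.81 (1.29 to 2.55) in PD-1-positive and 1.70 (1.43 to 2.03) in Pdcd1-negative cells, and Txnip 1.98 (1.5 to 2.64) and 2.11 (1.76 to 2.53). Ccl5, a chemokine of effector T cells, was at 1.28 on the log2 scale in PD-1-positive cells and 0.89 in Pdcd1-negative cells.

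Of 15 measured cell cycle genes 6 were at least 1.5-fold lower in DT, against 5.22% of all genes, and 0 higher, at a median of -0.39, beside -0.05 in Pdcd1-negative cells. As means over cells the list median was -0.18. Birc5 and Ccnb2, genes of mitosis, were named as lower with 10 and 5 UMIs in DT and 81 and 46 UMIs in PBS, but in few cells: 3 DT and 9 PBS cells had Birc5, 3 and 7 had Ccnb2. Mki67, a marker of cycling cells, was in 15.04% of DT and 15.5% of PBS cells. The interferon-stimulated genes had a median of 0.35, with 5 of 18 higher and 0 lower, beside 0.47 in Pdcd1-negative cells, and without the cells that hold markers of other types a median of -0.19 in PD-1-positive cells. Of 15 measured transcription factors of chronic stimulation 3 were at least 1.5-fold higher in DT (Tox, Nr4a3 and Prdm1) and 2 lower (Irf4 and Nfatc1), at a median of 0.27. Without the cells that hold markers of other types the median was 0.06. Tox, Nr4a3 and Prdm1 were then under 1.5-fold, at log2 ratios of 0.46, 0.24 and 0.55. Irf4 and Nfatc1 stayed lower in DT, at -1.26 and -0.77. Nfatc1, which acts with antigen receptor signals, had a ratio of 0.6001 (0.454 to 0.788), beside 1.16 (0.721 to 1.88) in Pdcd1-negative cells, and a log2 ratio of -0.08 without cells that had Il2ra or Ikzf2, beside -0.71 with all cells.

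The genes named for their DT to PBS ratios included sex-linked genes and genes of other cell types. Xist had 230 DT and 24 PBS UMIs, and the Y-linked Ddx3y and Eif2s3y had 4 UMIs each in DT and 68 and 56 in PBS. Mgp, Col3a1, Col1a1, Sparcl1, Serping1 and Sparc, genes of stromal cells, and Fscn1 were higher in DT, and in each of these 7 at least 91.3% of the DT UMIs were in 1 cell. Lyz2, Apoe, Lpl, Ccl6, Slpi and Saa3, genes of phagocytes and epithelium, were lower in DT: Lpl, Slpi and Saa3 gave 0 UMIs in DT against 99, 45 and 43 in PBS, with 61.6%, 93.3% and 100% of the PBS UMIs in 1 cell. Lyz2, Apoe and Ccl6 were lower in DT in both cell sets, with ratios of 0.107, 0.146 and 0.1495 in PD-1-positive cells and 0.0587, 0.268 and 0.0378 in Pdcd1-negative cells. The other 2 genes named as higher, Tff1 and Trdc, had log2 ratios of 2.60 and 2.69 without the mixed cells and 2.36 and 2.56 with them. Tff1, a trefoil peptide better known from stomach mucus, had 85 UMIs in 15 DT cells and 16 UMIs in 6 PBS cells, 0 UMIs in Pdcd1-negative cells and none in B cells or neutrophils, a ratio of 6.22 (3.62 to 11.4). Trdc had 48 and 6 UMIs in 10 and 2 cells. Scgb1a1, the secreted product of the club cells that the toxin targets, gave 0 UMIs in DT and 31 UMIs in PBS PD-1-positive cells, and 2 and 40 UMIs in Pdcd1-negative cells.

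Cells with at least 10 UMIs over the markers of B cells, neutrophils, phagocytes, dendritic cells, epithelium, endothelium and stroma, called mixed here, numbered 8 in DT and 15 in PBS among PD-1-positive cells and 5 and 12 among Pdcd1-negative cells. Their median depth was 15150 UMIs in DT and 15290 UMIs in PBS among PD-1-positive cells, against 4886 and 4857 UMIs in the rest. The stroma and endothelium list (10 genes, 1 at 0 in DT and 3 at 0 in PBS) summed to 1060 CPM in DT and 37.8 CPM in PBS, with 90.7% of the DT UMIs in 1 cell, and the phagocyte list (14 genes, 3 and 1 at 0) to 541 and 3408 CPM, with 35.1% of the PBS UMIs in 1 cell. Without the mixed cells 249 genes were at least 2-fold higher and 123 lower in PD-1-positive than in Pdcd1-negative cells in both libraries, and 397 were higher and 310 lower in DT than in PBS. Penk, Lag3 and Tox then had DT to PBS log2 ratios of 2.30, 0.60 and 0.46, beside 2.29, 0.58 and 0.59 with them. MHC class II genes, at a median of 1.502 in DT and 0.77 in PBS over Pdcd1-negative cells, moved with these cells, and stood at -0.08 and -0.23 without them. Their DT to PBS median was -0.98 with the mixed cells and -0.29 without.

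**Figure D5:**
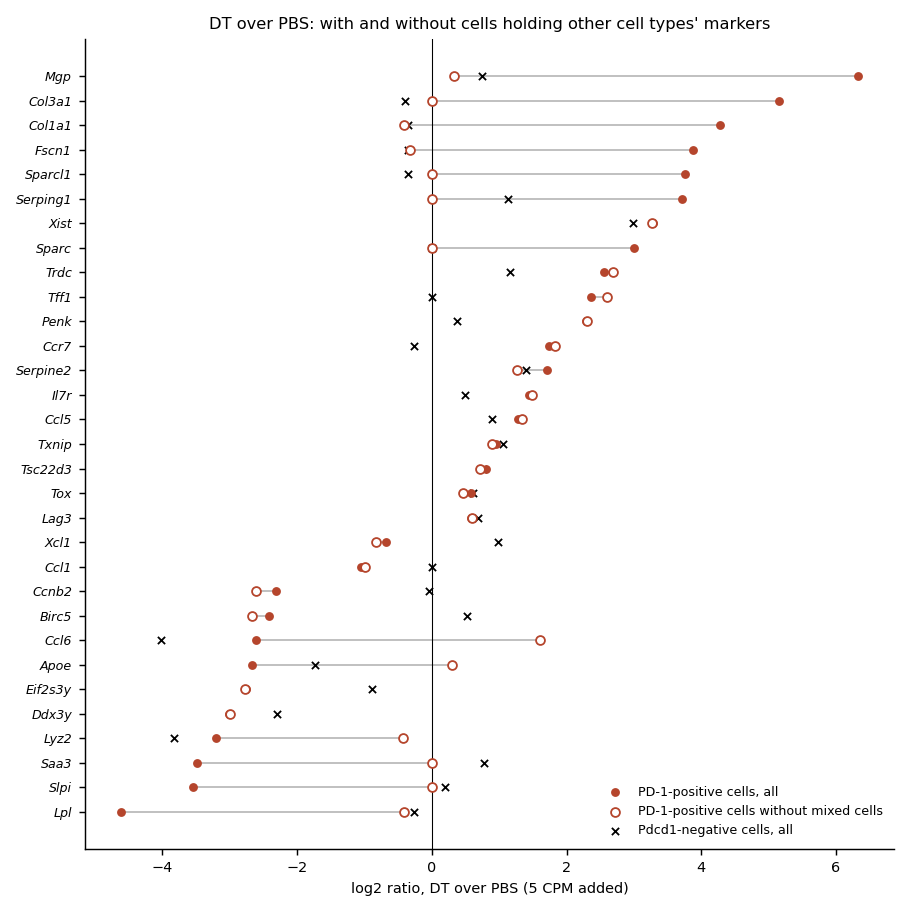
Log2 ratio of DT over PBS (x axis) for the named genes and 11 others of the text (y axis), in all PD-1-positive cells (filled), in PD-1-positive cells without mixed cells (open) and in Pdcd1-negative cells (crosses). Stromal and phagocyte genes move to near 0 or across it without mixed cells, while Penk stays at 2.30, Xist at 3.27 and Tff1 at 2.60.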

How the data were processed

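Per the submitters' processing notes, reads were handled with Partek, Seurat and STAR on mm10. Tool versions, annotation and filters on cells: not given in the sources used here. As deposited by the authors, each value is a log2 of CPM plus 1 for 1 gene in 1 cell; within 1% tolerance, 100% of values above 0 were whole multiples of the smallest step in their cell. The plan had assumed counts, so these whole UMIs were recovered and summed over the cells of a set, and CPM was formed from the sums. Depth was 27896059 UMIs in DT (median 2909 per cell) and 31089434 UMIs in PBS (median 3719 per cell).

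Ratios carry exact conditional binomial intervals, levels exact Poisson intervals and shares Clopper-Pearson intervals, all at 95%; they cover counting error only, and with 1 library per group no test was made. Log2 ratios use 5 CPM added to each side. Genes were measured at 30 UMIs or more over both sides of a comparison (in each library for PD-1-positive over Pdcd1-negative cells). Past 2-fold in both libraries, with intervals without 1 and 50 CPM or more on one side in each, the 20 highest and 10 lowest were named by the smaller ratio; between DT and PBS, past 1.5-fold, the 10 highest and 10 lowest. Genes of the gate were left out, and list genes discussed in the text were also named. The members and the gene lists were chosen with earlier results of these data known. No doublet caller was run; cells with markers of other types were left out in an added alternative, chosen after seeing the data, as was the one without Trdc. The ratio computation was tested on simulated data. Python 3.11.15, numpy 2.4.6, scipy 1.17.1, pandas 2.3.3 and matplotlib 3.10.9 were used. Of the genes named by these rules, not all are reported here.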

Additional observations from a re-analysis of the deposited data

Results flagged for a closer look

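Among the genes named by rule or held in a list, with no minimum of UMIs, there were 5 for which the ratio of PD-1-positive to Pdcd1-negative CD4 T cells was past 1.5-fold in opposite directions in DT and PBS, with both counting intervals leaving out 1; these differences between libraries were not tested. On the log2 scale Sparc, a matrix protein of stroma, stood at 1.41 in DT and -1.59 in PBS. Slpi, a protease inhibitor of epithelium and phagocytes, stood at -1.88 in DT and 1.85 in PBS. Birc5, a gene of mitosis, stood at -2.10 in DT and 0.84 in PBS. Chil3, a gene of macrophages and neutrophils, stood at 3.20 in DT and -1.14 in PBS. Ccl22, a chemokine of dendritic cells, stood at 2.11 in DT and -2.64 in PBS. Sparc in PBS, Slpi in DT and Ccl22 in DT had under 30 UMIs over both cell sets, so these 3 genes are not among the 5844 measured genes. All 5 rest on few cells: in PD-1-positive cells Chil3 was detected in 6 DT and 13 PBS cells, Birc5 in 3 and 9, Slpi in 0 and 3, Sparc in 2 and 2, and Ccl22 in 1 and 1.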

How the results depend on the processing

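No paired analysis was possible because each group is 1 library. Over 184 results and 16 alternative settings, 2146 values were compared: of the leading results 108 stayed within the limits set for them and 32 moved, of list medians 928 stayed, 127 moved and 4 reversed, and of single genes 684 stayed, 252 moved and 11 reversed. The values that stayed include some that a setting could not change. Weighting by depth altered only Pdcd1-negative cells, so the DT to PBS values of PD-1-positive cells were the same by construction. Limits on UMIs, genes and mitochondrial share left out 0 PD-1-positive cells, and 1 DT and 0 PBS Pdcd1-negative cells. The causes were not tested except where a setting changes the genes or cells counted.

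With 20 CPM added, 148 genes were higher and 70 lower in PD-1-positive than in Pdcd1-negative cells, 188 were higher and 154 lower in DT than in PBS, and Penk stood at 5.58 in DT and 3.47 in PBS. With at least 100 UMIs the same counts were 101, 49, 81 and 71; with at least 10 UMIs 358 were higher in PD-1-positive cells and 1158 higher and 751 lower in DT. Penk in PBS was 5.24 with trimmed mean scaling and 5.07 as a mean over cells. Weighting by depth gave 68 lower genes, Lag3 at 3.61 and Penk at 6.70 in DT, and the NK cell list at -0.22 in PBS.

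The share of CD4 T cells with Pdcd1 was 28.01% in DT and 24.4% in PBS after thinning, and 27.36% and 28.14% at 2 UMIs. Without cells that had Il2ra or Ikzf2 it was 22.56% and 21.28%. In DT it was 53.02% in female-called and 21.43% in male-called cells at full depth, and 34.7% and 17.9% after thinning. Without Il2ra or Ikzf2, 137 genes were higher in PD-1-positive cells and 323 higher in DT, Penk was at 5.95 in DT and 4.14 in PBS, Ccl9, Mgl2 and the phagocyte list reversed in DT at -0.20, -1.71 and -0.34, and Gzma reversed in PBS at 0.83. Penk was at 5.10 in male-called PBS cells.

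Without the deepest 10% of cells Mgl2 and the MHC class II list stood at -0.00482 and -0.012 in DT, and Col1a1, Fscn1 and Ccl6 at -0.42, -0.26 and 0.18 for DT over PBS. Without mixed cells Lag3 was at 3.49 and the MHC class II list at -0.081 in DT, and Col1a1, Fscn1, Apoe and Ccl6 were at -0.42, -0.32, 0.30 and 1.601 for DT over PBS. Contrasts of PD-1-positive with Pdcd1-negative cells within male-called DT and female-called PBS cells, and of PD-1-positive cells between libraries within a sex, were not run, with under 20 cells on a side. Male-called Pdcd1-negative cells were not compared between libraries.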
